A study of Mus musculus with 2 samples.

Results

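The subject is a panel of 32 genes for transporters and receptors of the blood-brain barrier, read across the endothelial, mural and ependymal cells of the mouse spinal cord. The panel was a fixed list of pumps, solute carriers and receptors for transcytosis, named one by one. No measured value enters the rule, but the names were chosen with earlier results of these data known. All 32 members were among the 24060 genes with a UMI in these data. It held 4 efflux pumps (Abcb1a, Abcb1b, Abcg2, Abcc4), carriers of glucose, monocarboxylates, amino acids, taurine, organic anions, vitamins, nucleosides and metals, the lipid carrier Mfsd2a, and the receptors Tfrc, Lrp8 and Insr.

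Endothelial cells of the brain and spinal cord are sealed by tight junctions, so that nutrients enter, and drugs and waste leave, through membrane proteins of the endothelial cell itself. Carriers of the solute carrier families move small molecules such as glucose, lactate and amino acids, ATP-driven pumps of the ABC family return lipophilic compounds to the blood, and receptors such as the transferrin receptor carry larger cargo through the cell in vesicles. Molecular identity changes along the vessel from artery over capillary to vein, and the wall outside the endothelium is formed by mural cells, namely pericytes on capillaries and smooth muscle cells on larger vessels. Ependymal cells bear cilia, line the central canal and face the cerebrospinal fluid, and they do not form this barrier.

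The data were 2 libraries of droplet-based single-cell RNA sequencing from spinal cords of adult C57BL/6j mice (10 to 12 weeks of age), 1 library per group and thus without replicates. All mice had the genotype Clec9acre/creR26LSLtdTomato/LSLtdTomato, in which Cre expressed from both copies of the locus of Clec9a, the gene for DNGR-1, permanently switches on tdTomato from both Rosa26 alleles, so mice with a Cre-free Clec9a allele were not part of either group. Myelin-depleted cells were sorted as live, CD45- and CD133+, and then as tdTomato-positive (CD133+ DNGR-1 traced) or tdTomato-negative (CD133+ non-traced). How many mice were pooled is not given in the sources used here.

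Depth was counted in UMIs (unique molecular identifiers, each standing for 1 captured RNA molecule). There were 25411 non-traced cells, with 7218 UMIs in the median cell, and 4825 traced cells, with 8566. The libraries shared 42 barcode sequences. Each library was clustered on its own without the members among the clustered genes, and clusters were named from marker genes that are not members. The non-traced library gave 20865 endothelial-like, 1135 ependymal-like and 225 mural-like cells, the latter made up of 124 pericyte-like and 101 smooth muscle-like cells. The traced library gave 4713 ependymal-like and 64 endothelial-like cells, and 1640 non-traced and 48 traced cells stayed unnamed. The 8 endothelial markers summed to 19554 CPM in endothelial-like, 1163 CPM in mural-like cells and, among ependymal-like cells, 328 CPM (non-traced) and 25.3 CPM (traced), where CPM is the share of a gene in all UMIs of a class, scaled to 1000000. Of the sum in traced ependymal-like cells, 23.4 CPM came from Kdr alone, which was at 29.6 CPM in the non-traced ones. Mural-like and ependymal-like cells with 30 or more endothelial marker UMIs per 10000 were set aside. This limit took out 1498 of 1723 cells of the mural clusters and 48 cells of the non-traced ependymal clusters, and 82 and 26 cells, respectively, lay between 20 and 45. Counts were summed over the cells of a class before scaling, and since 3′ tags are not scaled to transcript length, levels are compared between classes and not between genes. Intervals are at the 95% level and stand for counting error alone, so the spread over mice or sorts is not in them. A member is called higher or lower when it differs at least 2-fold on the log2(CPM + 1) scale and reaches 10 CPM in either class, with no test.

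Endothelial-like cells of the non-traced library had 31 of the 32 members at 10 CPM or more, against 23 members in pericyte-like, 16 in smooth muscle-like, 18 in non-traced ependymal-like and 11 in traced ependymal-like cells. The median level of a member was 220 CPM in endothelial-like cells and 1.97 CPM in traced ependymal-like cells. The exception among endothelial-like cells was Abcb1b, the second mouse gene for P-glycoprotein, at 2.08 CPM. Abcb1b and Abcb1a are similar in sequence and lie next to each other on chromosome 5 (GRCm38, positions 8798147 to 8866315 and 8660077 to 8748575), so reads could have been split between them and the low value of Abcb1b is uncertain.

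**Figure D1:**
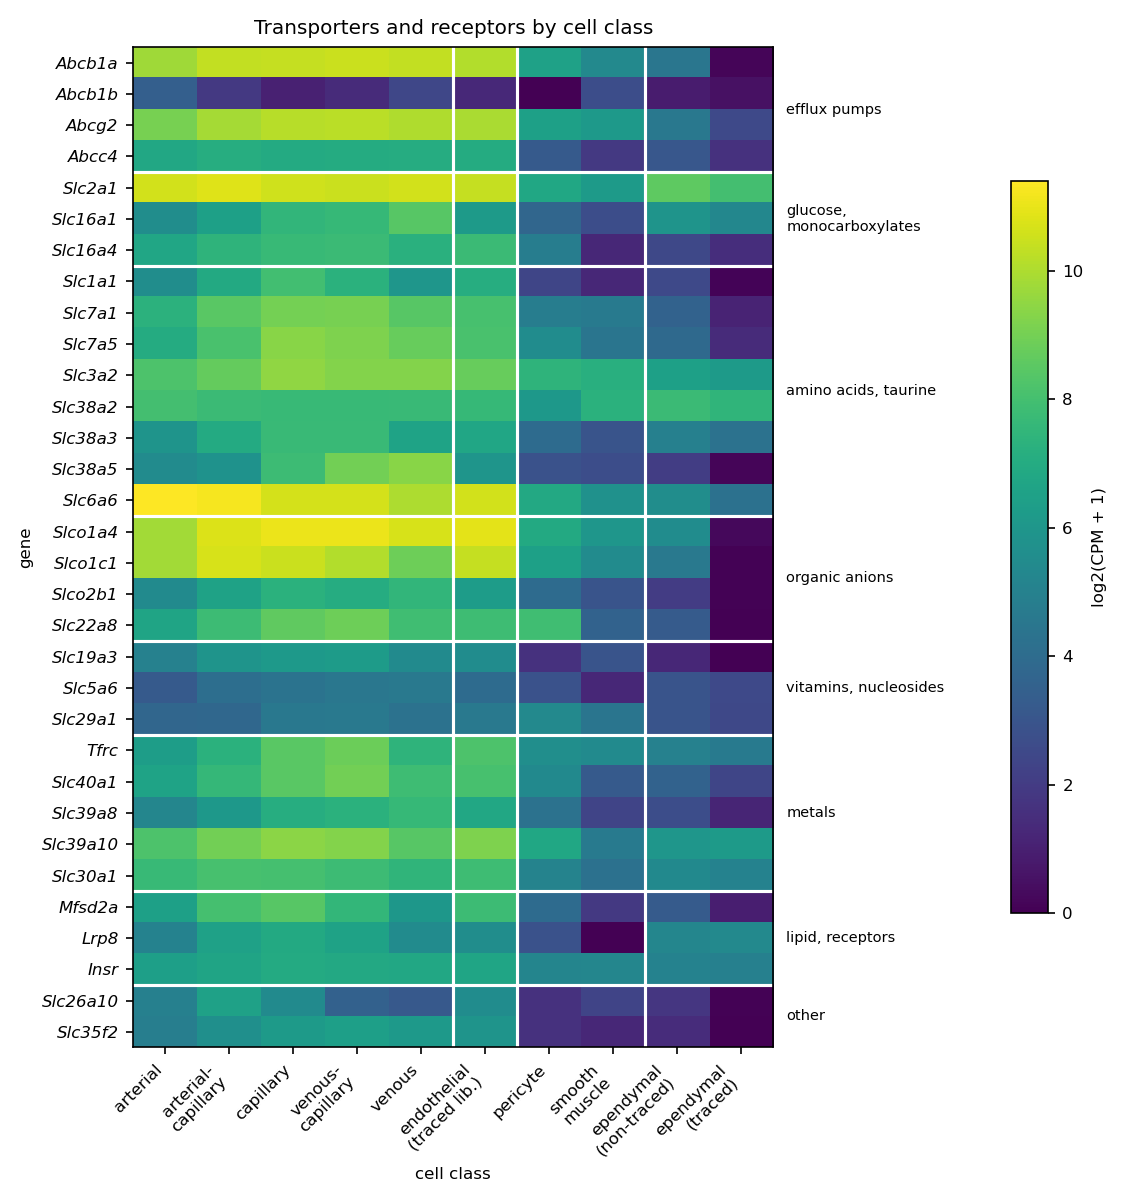
Level of each of the 32 members, as log2(CPM + 1) in colour, in 10 cell classes, with members grouped by role. Endothelial columns are bright for most members (31 of 32 at 10 CPM or more), while the traced ependymal column is dark for most of them (11 of 32 at 10 CPM or more).

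Of the members that passed the filter, 30 of 31 were higher in endothelial-like cells than in traced ependymal-like cells, where 20.2% of all genes tested were called higher. Against non-traced ependymal-like cells the number was also 30 of 31, with 19.6% of all genes called higher, and no member was called lower in either comparison (28.6% and 27.2% of all genes were lower). The median difference over all 32 members, filtered or not, was 5.87 on the log2 scale against traced and 4.43 against non-traced ependymal-like cells. Over all genes tested, which are those past the filter, it was -0.16 and -0.08. Against mural-like cells 29 of 31 members were higher (16.3% of all genes) and none was lower (16.3% of all genes). The median difference there over all 32 members was 3.90. Many members passed the filter through the endothelial-like cells alone and so were bound to be higher there: 20 against traced ependymal-like, 13 against non-traced ependymal-like and 13 against mural-like cells. These members also enter the medians. Of those at 10 CPM or more in both classes, 10 of 11, 17 of 18 and 16 of 18 were higher in endothelial-like cells. These mural counts rest on the limit on endothelial markers: with the cells over the limit included, none of 31 members was called higher.

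The organic anion carriers Slco1a4 and Slco1c1, the latter known for uptake of thyroid hormone, were among the members with the widest gap. Slco1a4 was at 1982 CPM in endothelial-like cells, 119 CPM in pericyte-like, 63.2 CPM in smooth muscle-like, 45.9 CPM in ependymal-like cells of the non-traced library and 0.197 CPM in those of the traced library. Slco1c1 was at 1357 CPM in endothelial-like cells, 88.0 CPM in pericyte-like, 43.9 CPM in smooth muscle-like cells and 23.5 CPM in the non-traced ependymal-like ones, and 2 UMIs of it were found in all 4713 traced ependymal-like cells. The endothelial-like level of the related carrier Slco2b1 was 131 CPM, and its ependymal-like levels were 3.02 CPM (non-traced) and 0.0437 CPM (traced). Each of these 3 carriers had at most 9 UMIs in all traced ependymal-like cells together. Slc22a8, an organic anion transporter that clears metabolites from the brain, had 352 CPM in endothelial-like cells but no UMI in the traced ependymal-like cells, which allows up to 0.0656 CPM (3 counts over the class) and makes the endothelial level at least 5368-fold higher. Those classes are from different libraries. In ependymal-like cells of the same library as the endothelial-like ones, Slc22a8 was at 8.60 CPM, or 2.44% of the endothelial level.

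Of the efflux pumps, Abcb1a (P-glycoprotein) was at 1303 CPM and Abcg2 (breast cancer resistance protein) at 1073 CPM in endothelial-like cells, compared with 0.131 and 4.68 CPM in traced ependymal-like cells. Abcc4, a pump for organic anions and cyclic nucleotides, was at 126 CPM in endothelial-like cells, against 2.12 CPM in the traced ependymal-like ones. In non-traced ependymal-like cells Abcb1a, Abcg2 and Abcc4 were at 21.5, 22.7 and 7.67 CPM. All 3 pumps were thus far lower in ependymal-like cells, and Abcb1b was low in every class (0 to 10.1 CPM), with its highest level in arterial-like endothelial cells on 128 UMIs.

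Along the vessel, endothelial-like cells of the non-traced library were divided into 11 sub-clusters, again without the members. From 12 arterial, 8 capillary and 12 venous markers, 2 sub-clusters were called arterial-like (1383 cells), 5 capillary-like (12807 cells) and 1 venous-like (182 cells). A further sub-cluster of 2990 cells with arterial markers at a lower level (Bmx, Vegfc, Gkn3) is called arterial-capillary here, and one of 2730 cells with venous markers at a lower level (Nr2f2, Vcam1, Flrt2) venous-capillary. The remaining 773 cells, led by mural genes, were left without a zone. They stayed in the endothelial-like class, to which mural-like and ependymal-like levels are compared. Stress or immune genes led some of these groups, namely Egr1, Nr4a1 and Atf3 in 1 capillary-like, Icam1, Cxcl1 and Cxcl2 in the venous-capillary and Ptgs2 and Cxcl11 in the venous-like sub-cluster, and haemoglobin genes led 2 capillary-like sub-clusters. The summed level of the dissociation genes (immediate early and heat shock genes) was 22901 CPM in arterial-like, 20469 CPM in arterial-capillary, 26567 CPM in capillary-like, 34707 CPM in venous-capillary and 28498 CPM in venous-like cells, and erythroid markers summed to 1104, 540.1, 612, 60.3 and 434 CPM in the same order. One arterial-like sub-cluster (1843 CPM) had as much erythroid RNA as the capillary-like sub-clusters led by haemoglobin genes (1975 and 1203 CPM). Median depth was 7366, 8115, 6301, 9191 and 9285 UMIs. The part of these measures in the differences below was not tested. Zone levels below pool the sub-clusters of a zone, and for some members the capillary-like sub-clusters spread more widely than neighbouring zones differ.

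Most members were lower in arterial-like than in capillary-like cells. Of 32 members 20 were higher in capillary-like cells and 1, Abcb1b, was lower, where 2.89% and 5.25% of all genes were called in these directions. The median difference over the members was 1.21 on the log2 scale and over all genes tested -0.03. Of the 5 zones, the arterial-like cells had the lowest level for 24 of 32 members, and 21.4% of all genes tested were lowest there. Levels in both arterial-like sub-clusters were below those in every one of the 5 capillary-like sub-clusters for 24 members and above them for 2 (Abcb1b and Slc6a6). When zones were assigned from the markers found in each single cell, 11 members were called, and 9 were called when the arterial-capillary cells were counted as arterial. Shares over all genes are not given for these settings. The 9 members called under all 10 alternatives were Slc1a1, Slc7a5, Slc38a3, Slc38a5, Slc16a1, Slc22a8, Slc39a8, Slc40a1 and Tfrc.

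**Figure D2:**
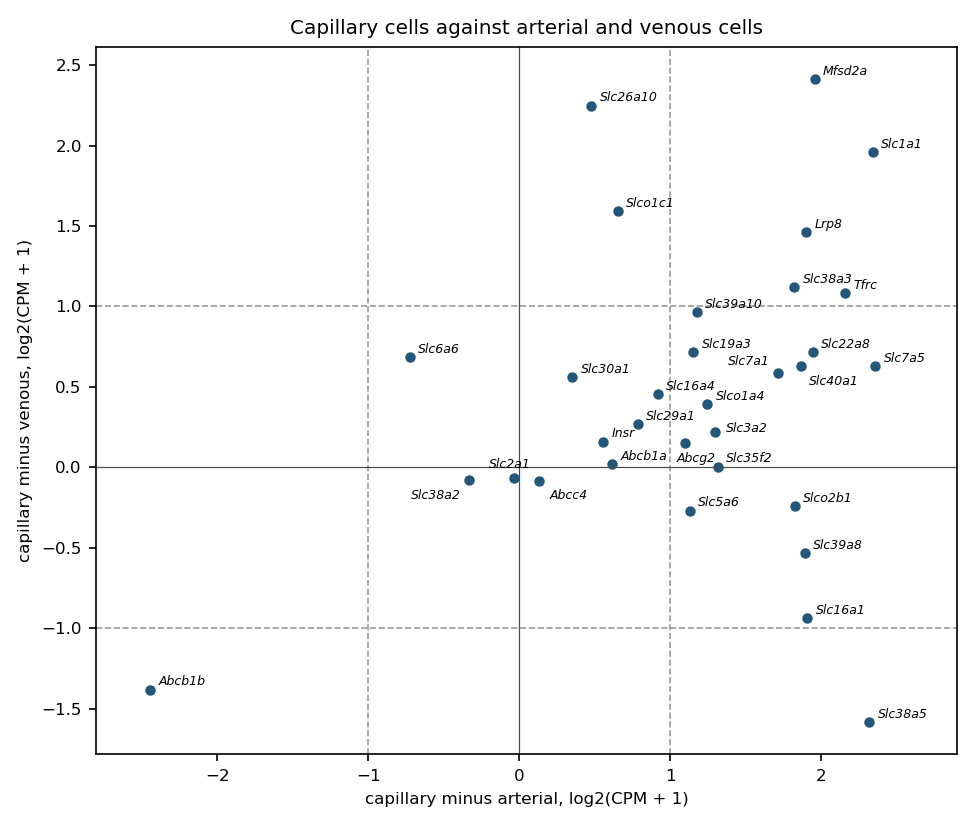
Difference of each member between capillary-like and arterial-like cells (horizontal axis) and between capillary-like and venous-like cells (vertical axis), both on the log2(CPM + 1) scale, with dashed lines at 2-fold. Most points lie to the right of the vertical dashed line at 1 (20 of 32 members), while 7 lie above the upper and 1 (Slc38a5), among those past the filter, below the lower horizontal line.

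Between capillary-like and venous-like cells fewer members differed. Of 31 members past the filter 7 were higher in capillary-like cells (2.62% of all genes) and 1, Slc38a5, was lower (4.93% of all genes). Between arterial-like and venous-like cells 3 members were higher in arterial-like cells (6.11% of all genes) and 12 were lower (5.28% of all genes). With the venous-capillary cells counted as venous and the arterial-capillary cells as arterial, these numbers were 1 and 1, and 1 and 7, respectively. Over the alternatives, 2 to 17 members differed between capillary-like and venous-like cells, the 17 in a coarser clustering with 92 venous-like cells. No share over all genes is given for these alternatives. Slc38a5 alone was called in every one of them, and Slc7a5, Slc38a5, Slc16a1, Slc39a8 and Slc26a10 were in every one between arterial-like and venous-like cells.

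Members that peaked in different zones are shown by the sequence before their transcription start, so that they can be read beside the levels. The 250 bases upstream of the start are given 5′ to 3′ on the strand of the gene, from RefSeq on GRCm38.p6, for Slco1c1 (highest in arterial-capillary cells), Mfsd2a (capillary-like cells) and Slc38a5 (venous-like cells). Capitals mark matches, on either strand, to CTTTGA, the core motif of the TCF/LEF factors of the Wnt pathway, and to AGGAAG, a core motif of ETS factors.
Slco1c1, chr6:141524104-141524353, strand +: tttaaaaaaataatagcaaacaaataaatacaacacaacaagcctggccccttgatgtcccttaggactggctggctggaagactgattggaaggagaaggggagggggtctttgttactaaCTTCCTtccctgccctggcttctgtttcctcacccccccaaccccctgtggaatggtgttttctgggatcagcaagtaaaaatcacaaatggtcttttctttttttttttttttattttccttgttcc
Mfsd2a, chr4:122961189-122961438, strand -: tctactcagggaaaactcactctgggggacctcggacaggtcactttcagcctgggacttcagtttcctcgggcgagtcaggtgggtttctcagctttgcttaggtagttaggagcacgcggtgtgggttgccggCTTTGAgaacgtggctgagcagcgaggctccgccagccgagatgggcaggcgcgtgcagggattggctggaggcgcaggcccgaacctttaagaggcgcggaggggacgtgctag
Slc38a5, chrX:8271131-8271380, strand +: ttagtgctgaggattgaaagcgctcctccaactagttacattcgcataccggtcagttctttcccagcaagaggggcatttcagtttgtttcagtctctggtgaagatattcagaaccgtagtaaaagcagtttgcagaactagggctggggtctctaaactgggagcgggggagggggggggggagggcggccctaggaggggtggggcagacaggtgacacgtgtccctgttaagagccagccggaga
The window of Mfsd2a held 1 match to the TCF/LEF core and that of Slco1c1 held 1 to the ETS core, while neither motif was found in that of Slc38a5. Over the panel, 27 members had a promoter in the table, of which 7 (25.9%) held the TCF/LEF core and 8 (29.6%) the ETS core. Of all 27025 genes in the table the shares were 14.1% and 29.2%. These matches are a description of the letters in the windows. The gene model of Mfsd2a in GENCODE M21 runs from 122946850 to 122961188 on chromosome 4 and that of Slco1c1 from 141524368 to 141570177 on chromosome 6, so both windows lie upstream of the gene. The model of Slc38a5 runs from 8271133 to 8280179 on chromosome X and so takes in nearly all of its window, since the RefSeq start lies further in.

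Glutamine carrier Slc38a5 had the widest range along the vessel. It was at 43.5 CPM in arterial-like, 55.5 CPM in arterial-capillary, 221 CPM in capillary-like, 500.0 CPM in venous-capillary and 665 CPM (630.3 to 701) in venous-like cells. The level thus increased from artery to vein at every step, and the venous-like level was 15.3-fold the arterial-like level (13.8 to 16.9). Another glutamine carrier of the panel in this family, Slc38a3, was highest in capillary-like (213 CPM) and venous-capillary cells (210 CPM), which did not differ beyond counting error, and lower in venous-like (97.6 CPM) and arterial-like cells (59.5 CPM).

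Slc16a1, the monocarboxylate carrier for lactate and ketone bodies, and Slc39a8, a carrier of zinc and manganese, had the same order of zones as Slc38a5. Slc16a1 was at 47.4, 86.7, 181, 195 and 346 CPM from arterial-like to venous-like cells, a 7.30-fold range (6.54 to 8.15). Slc39a8 was at 36.1, 66.7, 136, 155 and 198 CPM in the same order, a 5.48-fold range (4.79 to 6.28). The capillary-like sub-clusters ranged from 121 to 267 CPM for Slc16a1 and from 101 to 178 CPM for Slc39a8. The venous-capillary levels lay within these ranges. Slc5a6, which carries biotin and pantothenate, had the same order of zones but at a low level (8.27 to 23.5 CPM), and its venous-like and venous-capillary levels did not differ beyond counting error. Slco2b1 was highest in venous-like cells as well, at 181 CPM against 42.4 CPM in arterial-like cells.

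**Figure D3:**
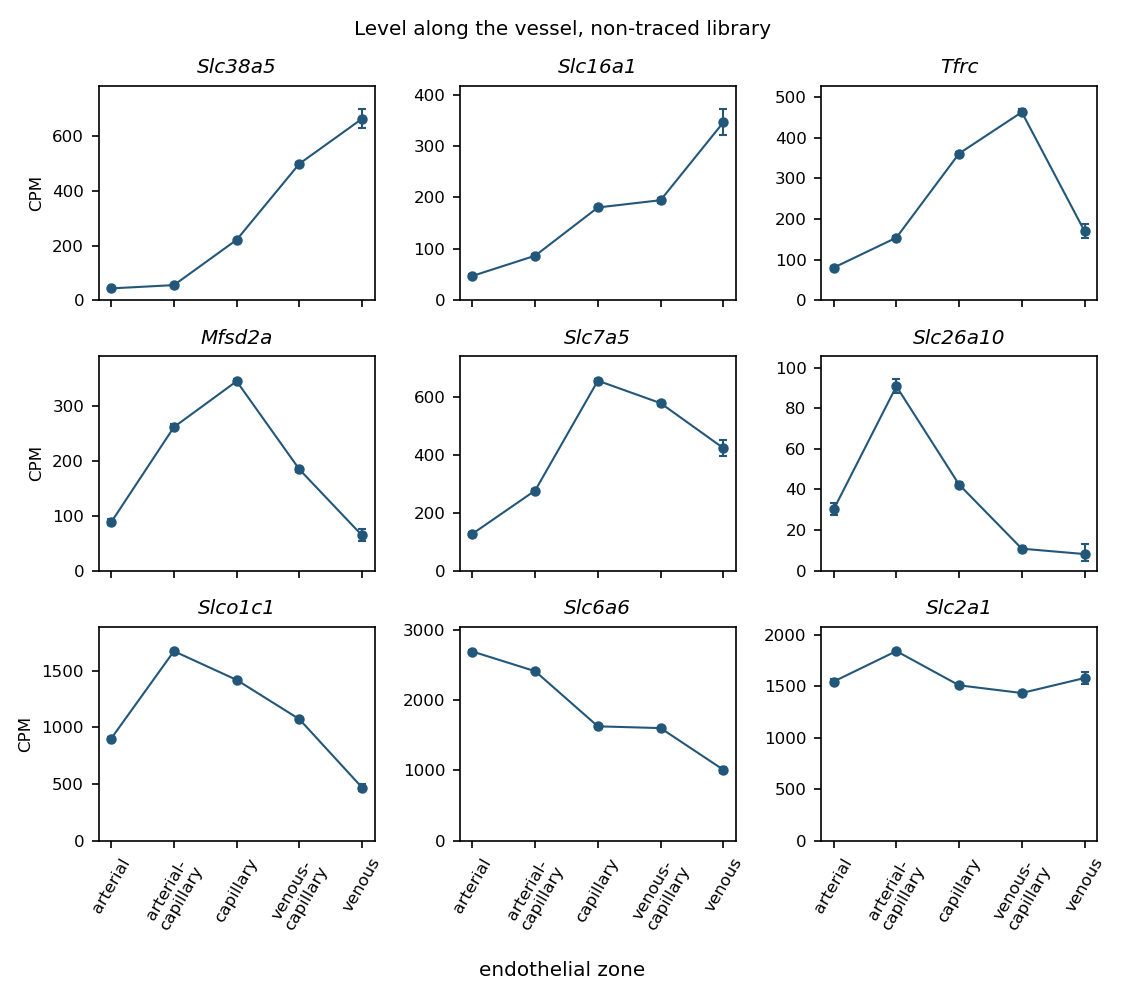
Level in CPM of 9 members in the 5 endothelial zones of the non-traced library, ordered from artery to vein, with Poisson 95% intervals as bars (counting error only). Slc38a5 and Slc16a1 increase toward the venous-like cells (665 and 346 CPM), Mfsd2a peaks in capillary-like cells (346 CPM), Slc6a6 decreases toward the vein, and Slc2a1 stays between 1435 and 1842 CPM.

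A second group peaked in the capillary-like cells and was low at both ends of the vessel. Mfsd2a, which takes up lysophospholipids carrying docosahexaenoic acid, was at 88.3 CPM in arterial-like, 262 CPM in arterial-capillary, 346 CPM in capillary-like, 185 CPM in venous-capillary and 64.1 CPM in venous-like cells. Its capillary-like level was 3.92-fold the arterial-like (3.69 to 4.16) and 5.39-fold the venous-like level (4.55 to 6.44). Slc1a1, a carrier of glutamate and aspartate, was at 47.1, 118, 243, 153 and 61.7 CPM in the same order of zones. Lrp8, a receptor for reelin and apolipoprotein E, was at 31.9, 90.0, 122, 94.2 and 43.6 CPM. All 3 were higher in capillary-like cells than at either end, the venous end on 182 cells. With the transitional cells counted as arterial and venous, all 3 lost their call over venous-like cells. With zones per cell, Slc1a1 and Lrp8 lost it as well. Mfsd2a and Lrp8 lost their call over arterial-like cells under both settings, while Slc1a1 kept it. Lrp8 ranged from 91.4 to 151 CPM among the capillary-like sub-clusters, and its venous-capillary level lay within this range.

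The subunits of the large neutral amino acid exchanger, Slc7a5 (the light chain) and Slc3a2 (the heavy chain, shared with other exchangers), were both highest in capillary-like cells. Slc7a5 was at 127 CPM in arterial-like, 277 CPM in arterial-capillary, 658 CPM in capillary-like, 580.2 CPM in venous-capillary and 425 CPM in venous-like cells. Slc3a2 was at 293, 418, 723, 619 and 619 CPM in the same order, a range of 2.46-fold (2.38 to 2.55) where that of Slc7a5 was 5.16-fold (4.91 to 5.43). Among the capillary-like sub-clusters Slc7a5 ranged from 540 to 800 CPM and Slc3a2 from 565 to 903 CPM. The venous-capillary levels of both and the venous-like level of Slc3a2 lay within these ranges, so the peak holds for the pooled zones only. The carrier of cationic amino acids, Slc7a1, was highest in venous-capillary cells (540 CPM) and lowest in arterial-like cells (159 CPM).

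With the sub-clusters of each zone pooled, the iron genes were highest in venous-capillary cells. Tfrc, the transferrin receptor and a common target for delivery across the barrier, was at 80.1 CPM in arterial-like, 154 CPM in arterial-capillary, 361 CPM in capillary-like, 462 CPM in venous-capillary and 170 CPM in venous-like cells. Slc40a1 (ferroportin, the iron exporter) was at 97.3, 192, 357, 492 and 231 CPM in the same order. Among the capillary-like sub-clusters Tfrc ranged from 243 to 514 CPM and Slc40a1 from 251 to 459 CPM. Tfrc was 2.12-fold higher in capillary-like than in venous-like cells (1.91 to 2.36), but this direction turned when the venous-capillary cells were counted as venous, to -0.30 on the log2 scale. Slc22a8 followed the iron genes, with 101 CPM in arterial-like and 466 CPM in venous-capillary cells, and from 296 to 513 CPM among the capillary-like sub-clusters. The zinc importer Slc39a10 was at 297 CPM in arterial-like and 673 CPM in capillary-like cells. The zinc exporter Slc30a1 varied less, from 174 CPM in venous-like to 272 CPM in arterial-capillary cells.

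Few members were weighted to the arterial side. Slc6a6, the taurine transporter, was at 2691 CPM in arterial-like, 2412 CPM in arterial-capillary, 1628 CPM in capillary-like, 1603 CPM in venous-capillary and 1011 CPM in venous-like cells, a decrease at every step of the pooled zones and 2.66-fold over the whole vessel (2.55 to 2.78). The capillary-like sub-clusters ranged from 866 to 2176 CPM of Slc6a6, and the lowest was below the venous-like level. Slco1c1 was highest in arterial-capillary cells (1673 CPM) and lowest in venous-like cells (470.0 CPM), with 902 CPM in arterial-like, 1419 CPM in capillary-like and 1073 CPM in venous-capillary cells. Slc26a10, a member of the SLC26 family of anion transporters, was at 30.2, 90.9, 42.4, 10.8 and 8.14 CPM from arterial-like to venous-like cells, the last on 17 UMIs. It also varied the most among the capillary-like sub-clusters, which had 3.97, 7.92, 33.7, 71.0 and 74.4 CPM (an 18.7-fold range). The 74.4 CPM was found in the sub-cluster led by Egr1 and Nr4a1.

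The remaining members were close to even over the pooled zones or intermediate. Slc2a1, the glucose transporter of the barrier, ranged from 1435 CPM in venous-capillary to 1842 CPM in arterial-capillary cells (1.28-fold), Abcc4 from 114 to 137 CPM (1.204-fold) and Slc38a2, a carrier of small neutral amino acids, from 201 to 253 CPM (1.26-fold). Sub-clusters within a zone were less even. Slc2a1 was at 1148 and 1819 CPM in the 2 arterial-like sub-clusters. Slc38a2 ranged from 124 to 325 CPM among the capillary-like sub-clusters. Insr, the insulin receptor, ranged from 84.4 to 125 CPM (1.48-fold). Slco1a4 was lowest in arterial-like (910.1 CPM) and highest in capillary-like cells (2160.0 CPM). Abcg2 ranged from 537 CPM in arterial-like to 1197 CPM in venous-capillary cells, and Abcb1a from 867 to 1433 CPM in the same zones. Slc16a4, a member of the monocarboxylate transporter family, the thiamine carrier Slc19a3, the nucleoside transporter Slc29a1 and Slc35f2, of the SLC35 family, were all lowest in arterial-like and highest in venous-capillary cells, with ranges of 2.02-fold, 2.40-fold, 1.83-fold and 2.997-fold. For Slc29a1 neither the lowest nor the highest level was apart from its neighbour beyond counting error.

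Ependymal-like cells of the non-traced library came from a suspension rich in endothelial cells, so their values were read beside the 4 endothelial markers that the study used (Cldn5, Flt1, Pecam1 and Ly6c1). These markers were at 1.27% to 1.75% of their endothelial level in non-traced ependymal-like cells and at 0.00277% to 0.106% in traced ependymal-like cells. In the non-traced library 20 of 32 members had a percentage whose lower bound was above the upper bound of all 4 markers, and in the traced library 22 of 32. Of all genes at 10 CPM or more in endothelial-like cells, 95% and 96.3% did so. These 4 genes are among the 8 markers by which the 48 non-traced cells were set aside, so the limit lowered the marker percentages directly. With those cells included the markers were at 3.54% to 4.01% and 19 members were above them, all but Mfsd2a of the 20. The libraries had 19 of these members in common, Slc26a10 was above in the non-traced library only, and Abcg2, Slc16a4 and Slc7a1 were above in the traced library only. The 9 members that were above in neither were Abcb1a, Slc1a1, Slc38a5, Slco1a4, Slco1c1, Slco2b1, Slc22a8, Slc19a3 and Slc35f2.

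**Figure D4:**
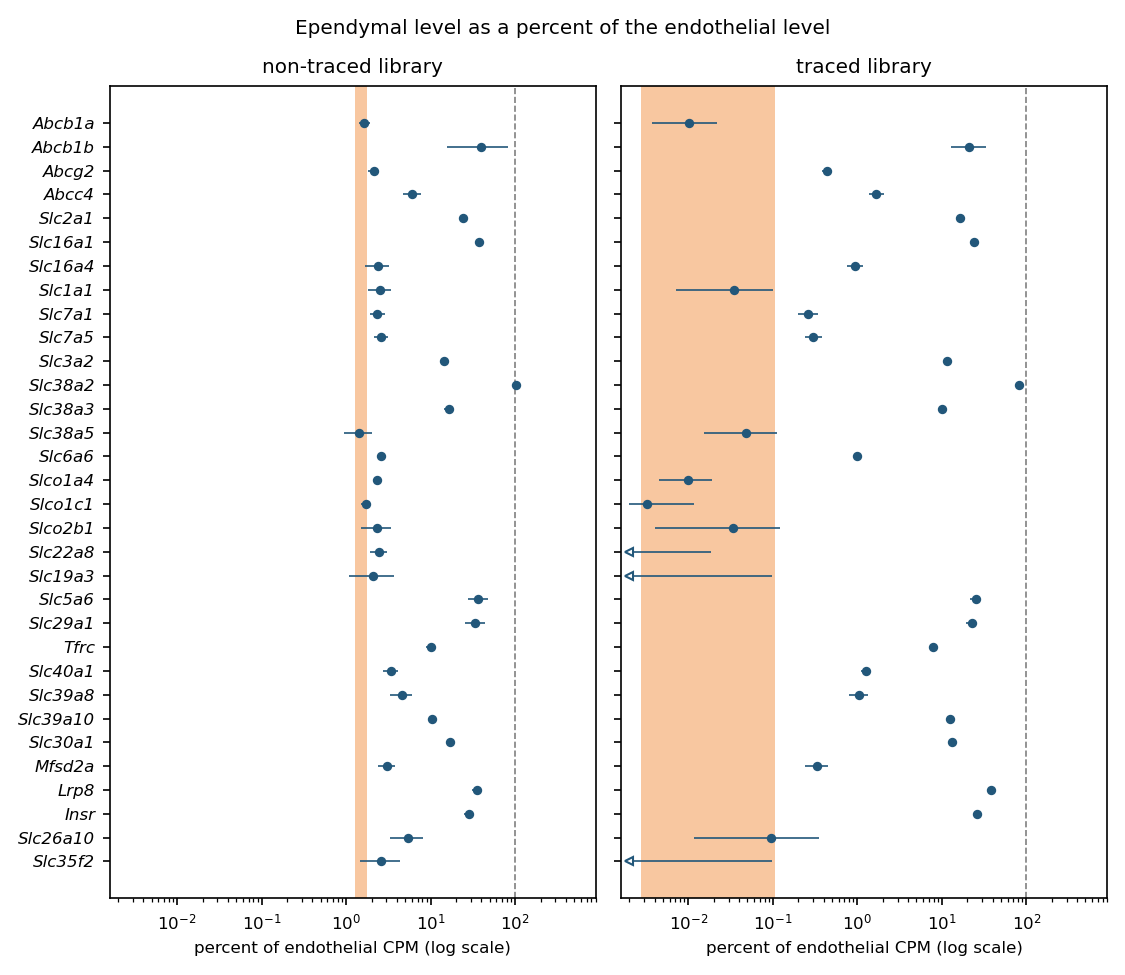
Level of each member in ependymal-like cells as a percent of its level in endothelial-like cells (log scale), in the non-traced (left) and traced library (right), with 95% intervals for counting error, open triangles for members without a UMI (their bars end at 3 counts), and a dashed line at 100%. The orange band is the range of 4 endothelial markers, 1.27% to 1.75% on the left and 0.00277% to 0.106% on the right, and members such as Slc38a2, Lrp8 and Slc2a1 lie far to its right in both libraries.

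Slc38a2, Lrp8, Slc16a1, Insr and Slc2a1 held the largest fractions of their endothelial level among the members at 10 CPM or more in traced ependymal-like cells. Slc38a2 had 217 CPM (non-traced) and 173 CPM (traced) in ependymal-like cells, close to the 210.1 CPM of endothelial-like cells, and was the only member past the filter that was not called higher in endothelial-like cells. Slc2a1 was at 378 and 253 CPM in the same order, which is 24.2% and 16.2% of the endothelial level. Lrp8 was at 36.2 and 40.1 CPM, or 34.9% and 38.6% of the endothelial level. Slc16a1 was at 58.3 and 37.6 CPM, or 37.0% and 23.9%, and Insr at 32.5 and 29.8 CPM, or 28.2% and 25.8%. Ependymal-like cells of both libraries therefore held transcripts of a glucose, a lactate and an amino acid carrier and of 2 receptors of the panel.

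The 5 metal transport genes of the panel were divided in ependymal-like cells. Slc39a10 had 62.0 CPM in the non-traced cells and 73.9 CPM in the traced ones, Slc30a1 had 41.7 and 32.6 CPM, and the transferrin receptor Tfrc had 31.6 and 25.1 CPM. Slc40a1 had 11.2 and 4.15 CPM and Slc39a8 had 5.46 and 1.25 CPM, so 3 of 5 were at 10 CPM or more in both libraries. Slc3a2 was at 89.3 and 72.2 CPM, or 14.4% and 11.7% of its endothelial level. Slc7a5 was at 13.9 and 1.62 CPM, or 2.61% and 0.303% of its own endothelial level. Slc38a3 was at 30.1 and 18.3 CPM and Slc6a6 at 46.8 and 18.0 CPM. The other members had 4.68 CPM or less in the traced ependymal-like cells. Slc5a6 and Slc29a1 were at 4.65 and 4.57 CPM there, 25.1% and 22.5% of their low endothelial levels, and Slc19a3 and Slc35f2 had no UMI.

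Across the 8 clusters of traced ependymal-like cells members differed in how even they were. Slc2a1 ranged from 143 to 359 CPM, Slc39a10 from 60.3 to 82.0 CPM and Insr from 22.3 to 36.5 CPM. Slc38a2 had the widest range of these, from 66.3 to 348 CPM (5.25-fold), and Slc38a3 ranged from 8.63 to 44.96 CPM.

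Traced and non-traced ependymal-like cells, the comparison for which the libraries were made, differed in 8 of 18 members past the filter. All 8 were lower in traced cells, where 1.38% of all genes were called lower, and none was higher (0.764% of all genes). They were Abcb1a, Abcg2, Slc7a1, Slc7a5, Slc6a6, Slco1a4, Slco1c1 and Slc40a1. Of these 7 passed the filter through the non-traced cells alone, so a difference was built into the filter, and 14 members were below 10 CPM in both classes. The endothelial markers were lower in the traced cells too (for Cldn5, 97.4 CPM in the non-traced and 0.284 CPM in the traced ones). The difference between libraries, as a percent of the endothelial level, was 1.57% for Slc6a6, 1.64% for Abcb1a, 1.68% for Abcg2, 1.73% for Slco1c1, 2.08% for Slc7a1, 2.14% for Slc40a1 and 2.31% for Slc7a5 and Slco1a4. For the 4 markers it was 1.26% to 1.75%, and the point values of Slc7a1, Slc40a1, Slc7a5 and Slco1a4 were above this range. These values carry no intervals, and the limit on endothelial markers lowered the range directly. With the cells over the limit included, the markers were at 3.54% to 4.01% of their endothelial level in non-traced ependymal-like cells. This order thus sets no member apart from the markers. The part of endothelial RNA in these differences was not tested.

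For the 10 other members past the filter the libraries differed by less than 2-fold. Slc2a1 was 1.49-fold higher in non-traced cells (1.44 to 1.55), Slc16a1 1.55-fold (1.40 to 1.71) and Slc38a2 1.25-fold (1.19 to 1.32), and for these the difference was 8.01%, 13.1% and 20.7% of the endothelial level, above the range of the markers. The point values of Slc38a3 (6.39%), Slc30a1 (3.64%), Slc3a2 (2.76%), Insr (2.40%) and Tfrc (2.05%) were above it as well. None of these percentages carries an interval, and the limit on endothelial markers lowered the range of the markers directly. They thus set no member apart from the markers. Slc39a10 and Lrp8 went the other way (-1.99% and -3.69%). Slc39a10 was 1.19-fold higher in traced cells (1.09 to 1.31). The intervals for Lrp8 (1.11-fold, 0.980 to 1.25) and Insr (0.915-fold, 0.804 to 1.04, traced over non-traced) included 1. With 1 library per group, these differences cannot be told apart from differences between the libraries.

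The same 4 endothelial markers stood higher in mural-like than in ependymal-like cells. They were at 3.43% to 7.69% of their endothelial level in pericyte-like and at 2.06% to 4.11% in smooth muscle-like cells. These percentages were themselves set by the limit, which used the same genes and took out most cells of the mural clusters, so the counts that follow describe the cells that were kept. In pericyte-like cells 6 of 32 members had a lower bound above the markers (85.8% of all genes did), namely Slc3a2, Slc38a2, Slc22a8, Slc39a10, Slc29a1 and Insr. In smooth muscle-like cells 6 did as well (91.1% of all genes), namely Abcb1b, Slc3a2, Slc38a2, Slc29a1, Tfrc and Insr. The classes were shallow, with 477196 and 728115 UMIs in all, and the pericyte-like class also held ependymal marker RNA (891 CPM summed) and haemoglobin RNA (18466 CPM summed over the erythroid markers), whose part in these values was not tested. Over all mural-like cells, 551 of the 621 CPM of ependymal markers came from the single gene Rarres2. Foxj1 had 2 UMIs in the pericyte-like class.

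**Figure D5:**
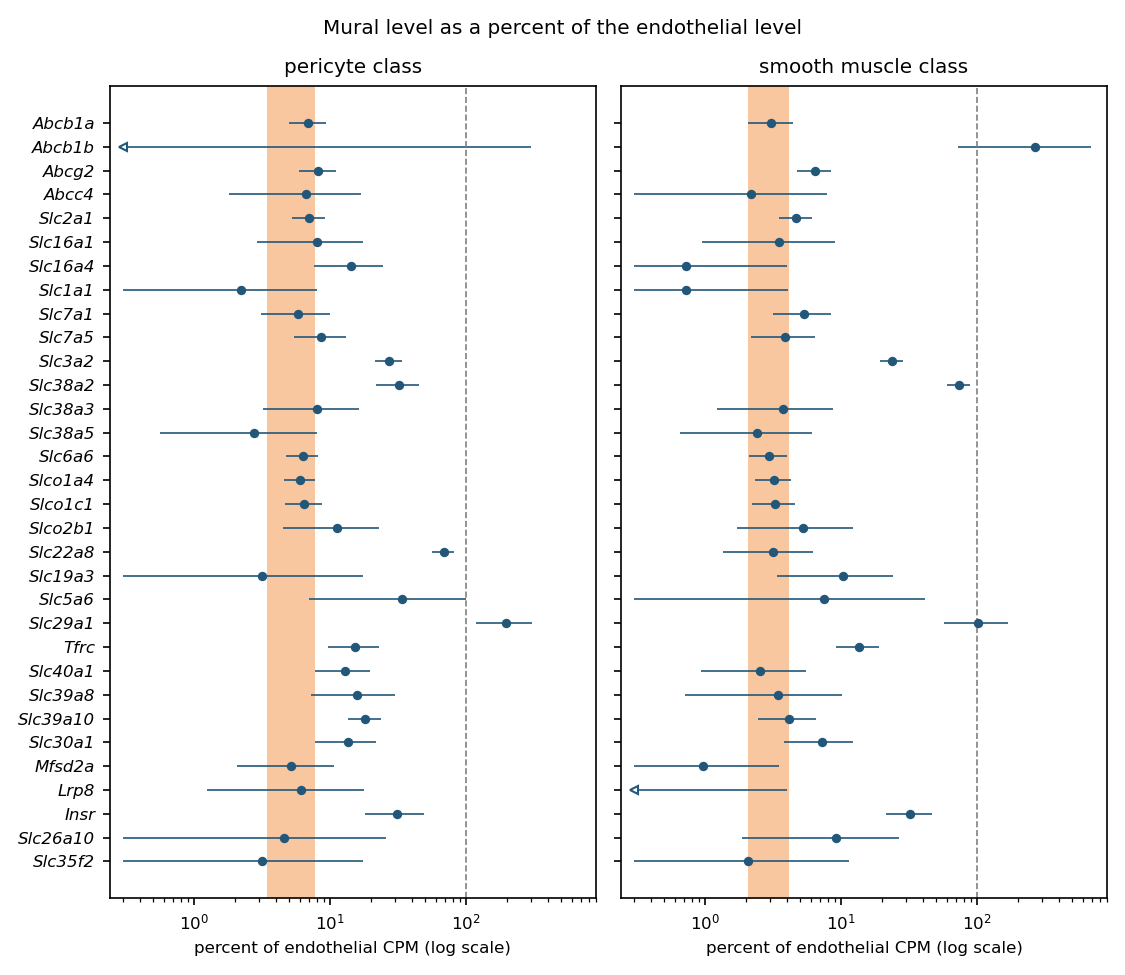
Level of each member in pericyte-like (left) and smooth muscle-like cells (right) of the non-traced library as a percent of its level in endothelial-like cells (log scale), with 95% intervals for counting error and open triangles for members without a UMI (their bars end at 3 counts). The orange band is the range of 4 endothelial markers (3.43% to 7.69% and 2.06% to 4.11%), and Slc22a8 stands at 68.5% in pericyte-like and 3.12% in smooth muscle-like cells.

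Slc22a8 set the mural types apart. It was at 241 CPM (199 to 289) in pericyte-like cells and at 10.99 CPM (4.74 to 21.6) in smooth muscle-like cells, against 352 CPM in endothelial-like cells, so that pericyte-like cells reached 68.5% of the endothelial level (56.5% to 82.2%) on 115 UMIs. Slc29a1 was at 39.8 CPM (24.0 to 62.2) in pericyte-like and 20.6 CPM (11.5 to 34.0) in smooth muscle-like cells against 20.3 CPM in endothelial-like cells, on 19 and 15 UMIs. Only this member and Abcb1b, with 4 UMIs in smooth muscle-like cells, had a mural value above the endothelial one. Slc38a2 was at 67.1 CPM in pericyte-like and 154 CPM in smooth muscle-like cells, and Slc3a2 at 168 and 146 CPM. Insr was at 35.6 and 37.1 CPM. Slc39a10 was at 109 CPM in pericyte-like and 24.7 CPM in smooth muscle-like cells. Abcb1a, at 90.1 and 39.8 CPM, and Slc2a1, at 109 and 72.8 CPM, were among the 26 members not above the markers in pericyte-like cells. Over the limit, the 1498 mural cells with many endothelial transcripts had 13950 CPM of the summed endothelial markers and 1380 CPM of Slco1a4, compared with 1163 and 85.5 CPM under it.

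The 64 endothelial-like cells of the traced library gave the members a further reading. Of 31 members past the filter 28 were within 2-fold of the non-traced endothelial-like cells, as were 89.6% of all genes, with a median difference of -0.22 on the log2 scale (0.10 over all genes). Slco1a4 had 1919 CPM there, against 1982 CPM in the non-traced library, and Slco1c1 had 1327 CPM, against 1357 CPM. The 3 members past 2-fold were all lower in the traced cells: Slc38a5 (60.3 CPM against 229 CPM), Slc16a1 (72.1 CPM against 158 CPM) and Lrp8 (47.1 CPM against 104 CPM). Summed arterial markers stood at 2485 CPM (traced) and 1067 CPM (non-traced) in these cells, and venous markers at 549 and 733 CPM. Markers of other cell types were higher in the traced ones, with ependymal markers at 633 and 15.2 CPM, pericyte markers at 2342 and 514 CPM and smooth muscle markers at 429.6 and 32.2 CPM. Their part in these differences was not tested.

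Shares of cells with a UMI were compared after thinning every cell to 1000 UMIs, which left out no cell. Slco1a4 was found in 82.3% of endothelial-like cells (81.8% to 82.8%), 4.58% of non-traced and 0.0424% of traced ependymal-like cells. Unthinned, the shares were 99.1%, 27.3% and 0.191%. Slc38a5 was found in 2.46% of arterial-like (1.71% to 3.42%) and 47.8% of venous-like cells (40.4% to 55.3%), and in 0.0212% of traced ependymal-like cells. Shares of this carrier thus followed its CPM. Slc22a8 was found in 25% of pericyte-like cells (17.7% to 33.6%), 28.3% of endothelial-like cells and 0 of 4713 traced ependymal-like cells, which allows a share of up to 0.0637%. Slc2a1 was found in 31.4% of non-traced and 21.8% of traced ependymal-like cells (88.6% and 83.5% unthinned), and the median depths of these classes were 7123 and 8588 UMIs, against 6903 UMIs for endothelial-like cells.

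A second list of 65 other transport genes was read beside the panel. Of 45 genes of that list past the filter 18 were higher in endothelial-like than in traced ependymal-like cells and 14 were lower, with a median difference of 0.20 on the log2 scale. Among the largest differences were those of the scaffold protein gene Slc9a3r2 and the immunoglobulin G receptor Fcgrt (1397 and 453 CPM in endothelial-like cells, against 10.9 and 5.70 CPM in the traced ependymal-like ones). In the other direction the largest were those of the glutamine carrier Slc38a1, the glutamate carrier Slc1a3 and the lipoprotein receptor Lrp1 (0.361, 2.41 and 2.30 CPM against 320.0, 289 and 54.6 CPM). Slc38a1 and Slc1a3 belong to the families of Slc38a5 and Slc1a1, which were higher in endothelial-like cells.

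Between zones, 6 of 37 genes of the second list were higher in capillary-like than in arterial-like cells and 5 were lower, a median difference of -0.10 where that of the panel was 1.21. The largest were Slc16a9 (61.9 CPM in capillary-like and 12.2 CPM in arterial-like cells), the leptin receptor Lepr (27.9 and 7.95 CPM) and the receptor Igf1r of insulin-like growth factor (1003 and 356 CPM), and in the other direction Slco3a1, Slc12a7 and Slc7a7. Against venous-like cells 4 of 40 were higher and 7 lower in capillary-like cells, and between arterial-like and venous-like cells 5 of 41 were higher and 10 lower in arterial-like cells. Against mural-like cells 19 of 47 were higher in endothelial-like cells and 17 were lower, among them Slc38a11 and the folate carrier Slc19a1 (420 and 415 CPM in mural-like cells). Against non-traced ependymal-like cells 17 of 47 were higher and 16 lower. Between traced and non-traced ependymal-like cells 4 of 38 were lower in traced cells and none was higher, with Slc9a3r2 and Fcgrt among the largest differences.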

How the data were processed

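The authors sequenced the libraries with a 3′ droplet kit and counted unique molecular identifiers with Cell Ranger 3.0.2, which aligned reads with STAR 2.5.1b to the mm10 transcriptome with a reporter sequence added. The deposited values are these raw counts per gene and cell, which the study analysed with Seurat 3 in R 3.6.0. A 3′ tag does not scale with transcript length. The study integrated the libraries, whereas here each was clustered alone in Seurat 5.3.0 (R 4.3.3) on 2000 variable features without the members and reporter rows, with 20 components and a resolution of 0.8. Endothelial cells were clustered again without dissociation genes. Clusters were named from marker genes, and the limit of 30 endothelial marker UMIs per 10000 was set after the data were seen. Counts were summed per class, scaled to CPM and compared as log2(CPM + 1), with a pseudocount of 1 CPM. Levels carry exact Poisson, ratios conditional exact and shares Clopper-Pearson 95% intervals, and a count of 0 allows 3 counts. No test was made, since each group is 1 library. Scrublet (scanpy 1.11.5) called 2170 of 25411 non-traced and 0 of 4825 traced cells doublets, and doublets were kept. All 32 members are named, and of the list of 65 genes up to 3 in each direction per comparison. Some results for genes of that list are not reported here. Members and lists were chosen with earlier results of these data known. Gene positions are from GENCODE M21 (GRCm38, the assembly of mm10). Comparisons were checked on count tables of known folds.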

Additional observations from a re-analysis of the deposited data

How the results depend on the processing

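All 30 members called higher in endothelial-like than in traced ependymal-like cells kept that call under 6 alternatives, and all 30 against non-traced ependymal-like cells under 7. Of the members lower in traced than in non-traced ependymal-like cells 7 of 8 were kept under 7 alternatives. Without the filter on low values 18 members were called, the added ones below 10 CPM in both classes. Shares over all genes are not given for the alternatives in this section, so these counts are read only beside the main counts. Including the mural cells over the endothelial limit left 0 members called against mural-like cells. With zones taken from the markers found in each cell, 11 members differed between capillary-like and arterial-like cells and 3 between capillary-like and venous-like cells. With the transitional sub-clusters counted as arterial and venous (chosen after seeing the data, as were the alternatives on the endothelial limit), the numbers were 9 and 2, and 8 between arterial-like and venous-like cells. At the lower resolution of 0.4, 17 members differed between capillary-like and venous-like cells. Tfrc turned direction in 3 cases: 0.0262 (arterial minus venous, resolution 0.4), -0.28 (capillary minus venous, zones per cell) and -0.30 (capillary minus venous, transitional cells counted as venous), on the log2 scale. The causes were not tested. Without thinning, the median share of endothelial-like cells with a UMI of a member was 69.7%, against 17.8% when thinned. No paired analysis was possible because each group is 1 library. Members under about 20 UMIs in a class, in mural-like cells above all, are limited by depth.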
